A study of Mus musculus with 7 samples.

Results

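The 44 genes described here encode the machinery of mitosis: the cyclins and kinases that start it, the spindle and its motors, the kinetochores, the spindle checkpoint, and the proteins that condense chromosomes and split the cell. They were chosen by gene symbol, by a rule that sets no cut on measured values, but with earlier results of these data known. All 44 were found among the 15815 genes of the table. The samples were YFP+ regulatory T (Treg) cells, CD4 T cells that restrain immune responses under the transcription factor Foxp3, sorted from mesenteric lymph nodes (mLN) of Rag-/- mice. Such hosts have no mature T or B cells except those injected. They were given naive T cells and further Treg cells of WT origin along with the YFP+ Treg population 8 weeks before the sort. The YFP+ cells of 4 libraries, WT 1 to WT 4, were WT, while those of 3 libraries, KO 1 to KO 3, lacked Hpgd, the enzyme that oxidises and inactivates prostaglandins. The line was Hpgd fl with Foxp3-YFP-Cre on C57BL/6JRcc, in which the Foxp3 locus drives Cre in Treg cells; the labels give this line for all 7 samples, and the genotype comes from the titles. Sex, host age and whether each library came from a separate host are not given in the sources used here, and the p-values therefore rest on the spread of these libraries, part of which can be technical.

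The libraries held between 4135733 (KO 3) and 10622507 (WT 4) reads, and all values below are normalized counts, that is, reads divided by a library's size factor. Hpgd stood at 18.7, 9.96, 10.2 and 13.4 in the WT libraries and at 0.759, 2.42 and 5.52 in the KO libraries, with no overlap (exact permutation p = 0.0571, made two-sided by doubling the one-sided p, the smallest this can give with 35 splits). Foxp3 was read in every library, at 56.1 to 161 across WT and 107 to 142 across KO. The 5 listed of 8 red blood cell markers, globins and Alas2, summed to 642 to 2809 in WT and 77.4 to 239 in KO. The 10 myeloid markers summed to 334 to 1468 in WT and 690 to 2240 in KO, and 6 B cell and plasma cell markers to 1453 to 2771 and 1524 to 2540. The part of these other cell types in the results below was not tested.

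In a dividing cell, cyclin-dependent kinase 1 bound to cyclin A or B starts mitosis, the spindle checkpoint holds the cell until every kinetochore is attached, and the anaphase-promoting complex then marks cyclin B for destruction. Most of these genes are transcribed in G2 and mitosis and are kept silent in resting cells. Their promoters are known for a cell cycle genes homology region (CHR), an element bound by the MuvB complexes (DREAM in resting cells, B-MYB and FOXM1 containing forms in dividing ones), and for CCAAT boxes, bound by NF-Y. Treg cells are known to contain a dividing fraction, marked by Ki-67, and transfer into lymphocyte-deficient hosts is known to drive T cell division.

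Promoter sequence was a feature shared by these genes that the choice of members did not use. RefSeq (GRCm38.p6) gave a window of 250 bases before to 50 bases after the start for 38 of the 44 genes. A CHR match, TTTGAA or TTCGAA on either strand, was found in 30 of the 38 (78.9%), against 2137 of 11795 genes of the table with a window (18.1%) and 7 of 46 S phase genes (15.2%). Other mitotic genes, a list described further on, held it in 38 of 69 (55.1%), a CCAAT box in 63.8% and both in 39.1%. The match lay wholly within 50 bases of the start in 28 of the 38 (73.7%), against 40.6% of the other mitotic genes and 4.87% of all genes of the table. A CCAAT box (CCAAT on either strand) was found in 29 of the 38 (76.3%), against 42.6% of all, and 26 (68.4%) held both, against 7.44% of all. Matches to an E2F element (searched on either strand as TTCCCGC, as the variant TTCGCGC, as the variant TTGCCGC and as the variant TTGGCGC) were found in 8 (21.1%), against 17.2% of all and 67.4% of S phase genes. TTGGCGC can share bases with a reversed CCAAT box. These matches describe letters in a window and show no binding. The following stretches, the 150 bases before the RefSeq start, are shown for Cdc20 and Cdk1 as examples of the common arrangement and for Top2a, Mki67 and Mad2l1 because their WT and KO values did not overlap. Kif2c, whose values did not overlap either, is not shown because its RefSeq start lies 3867 bases inside the GENCODE gene. Capitals mark CHR and CCAAT matches on either strand, and each is written 5′ to 3′ along the gene.
Cdc20 (chr4:118437344-118437493, minus strand): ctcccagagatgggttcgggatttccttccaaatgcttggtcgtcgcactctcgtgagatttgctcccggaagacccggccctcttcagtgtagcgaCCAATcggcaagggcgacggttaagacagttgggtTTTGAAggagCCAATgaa
Cdk1 (chr10:69352913-69353062, minus strand): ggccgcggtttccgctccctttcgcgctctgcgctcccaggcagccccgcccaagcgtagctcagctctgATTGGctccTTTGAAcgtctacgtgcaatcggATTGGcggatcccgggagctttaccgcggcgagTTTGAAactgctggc
Top2a (chr11:99024190-99024339, minus strand): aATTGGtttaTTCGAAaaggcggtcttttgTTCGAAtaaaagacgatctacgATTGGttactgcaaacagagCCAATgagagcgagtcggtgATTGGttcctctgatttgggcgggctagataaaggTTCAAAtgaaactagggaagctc
Mki67 (chr7:135716380-135716529, minus strand): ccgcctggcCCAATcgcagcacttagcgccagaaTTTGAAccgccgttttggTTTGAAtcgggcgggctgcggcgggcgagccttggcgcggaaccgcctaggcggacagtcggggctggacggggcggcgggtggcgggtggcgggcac
Mad2l1 (chr6:66535071-66535220, plus strand): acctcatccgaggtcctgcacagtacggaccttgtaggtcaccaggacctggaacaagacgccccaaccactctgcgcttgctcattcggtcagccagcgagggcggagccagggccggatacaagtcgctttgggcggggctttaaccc
Cdc20, Cdk1 and Top2a carried a CHR match near the end of the stretch, close to the start, with at least 1 CCAAT box upstream of it, and in Cdc20 a further CCAAT box lay between the CHR and the start. Mki67 carried its 2 CHR matches farther upstream, and Mad2l1 carried neither element in its window. The RefSeq start of Mad2l1 lies 169 bases upstream of the 5′ end of the gene in GENCODE M21. Its window stops before that end, so the bases next to it were not searched. For 34 of the 38 genes the RefSeq start lay within 250 bases of the 5′ end of the gene in GENCODE M21. The exceptions were Cdca3, Cdca8, Kif4 and Kif2c, whose RefSeq starts lie 629, 2394, 328 and 3867 bases downstream of that end.

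**Figure D1:**
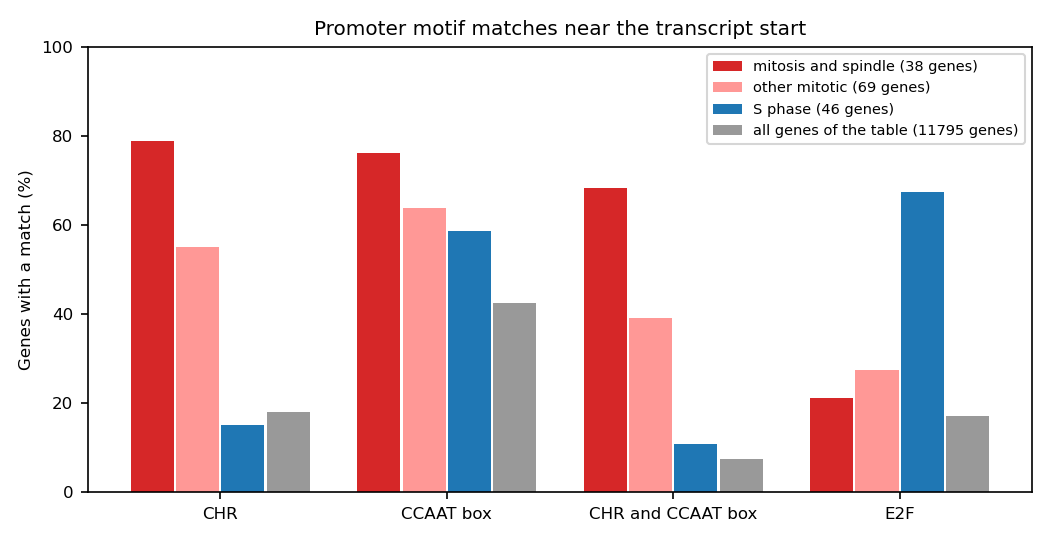
Share of genes (%, vertical axis) with a CHR, CCAAT box, both, or an E2F match in the window from 250 bases before to 50 bases after the RefSeq start, for 4 sets of genes (bars). The mitosis and spindle genes stand at 78.9% for CHR and the S phase genes at 67.4% for E2F, against 18.1% and 17.2% of all genes of the table.

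The comparison of WT with Hpgd-deficient Treg cells asked whether these genes differed between the genotypes. None of the 44 passed an adjusted p of 0.05 in limma (smallest adjusted p = 0.9996), as none of 11787 tested genes did (0%). All 44 lay above the mean of 10 normalized counts required for testing. Estimates were higher in KO for 33 of the 44 (75%), against 51.8% of all tested genes, and lower for 11 (25%), against 48.2%. The median log2 fold change was 0.36, against 0.01 over all tested genes. In 5 genes (11.4%), Kif2c, Top2a, Mki67, Mad2l1 and Incenp, every KO library lay above every WT library, against 1.71% of all tested genes. No gene had every KO library below every WT library, against 1.93% of all. At an unadjusted p under 0.05 there was 1 gene, Kif2c, higher in KO, where 0.781% of all tested genes were called that way and 1.01% the other way. Voom on recovered reads passed 0 of the 44 as well, as it passed 0 of all genes, with 1 of the 44 at an unadjusted p under 0.05 against 0.882% of all genes higher and 0.679% lower. That p of Kif2c was under 0.05 neither without WT 2 nor without KO 3. The median 95% interval extended 1.03 log2 units to either side of the estimate, and the intervals of 10 genes excluded both a 2-fold rise and a 2-fold fall.

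**Figure D2:**
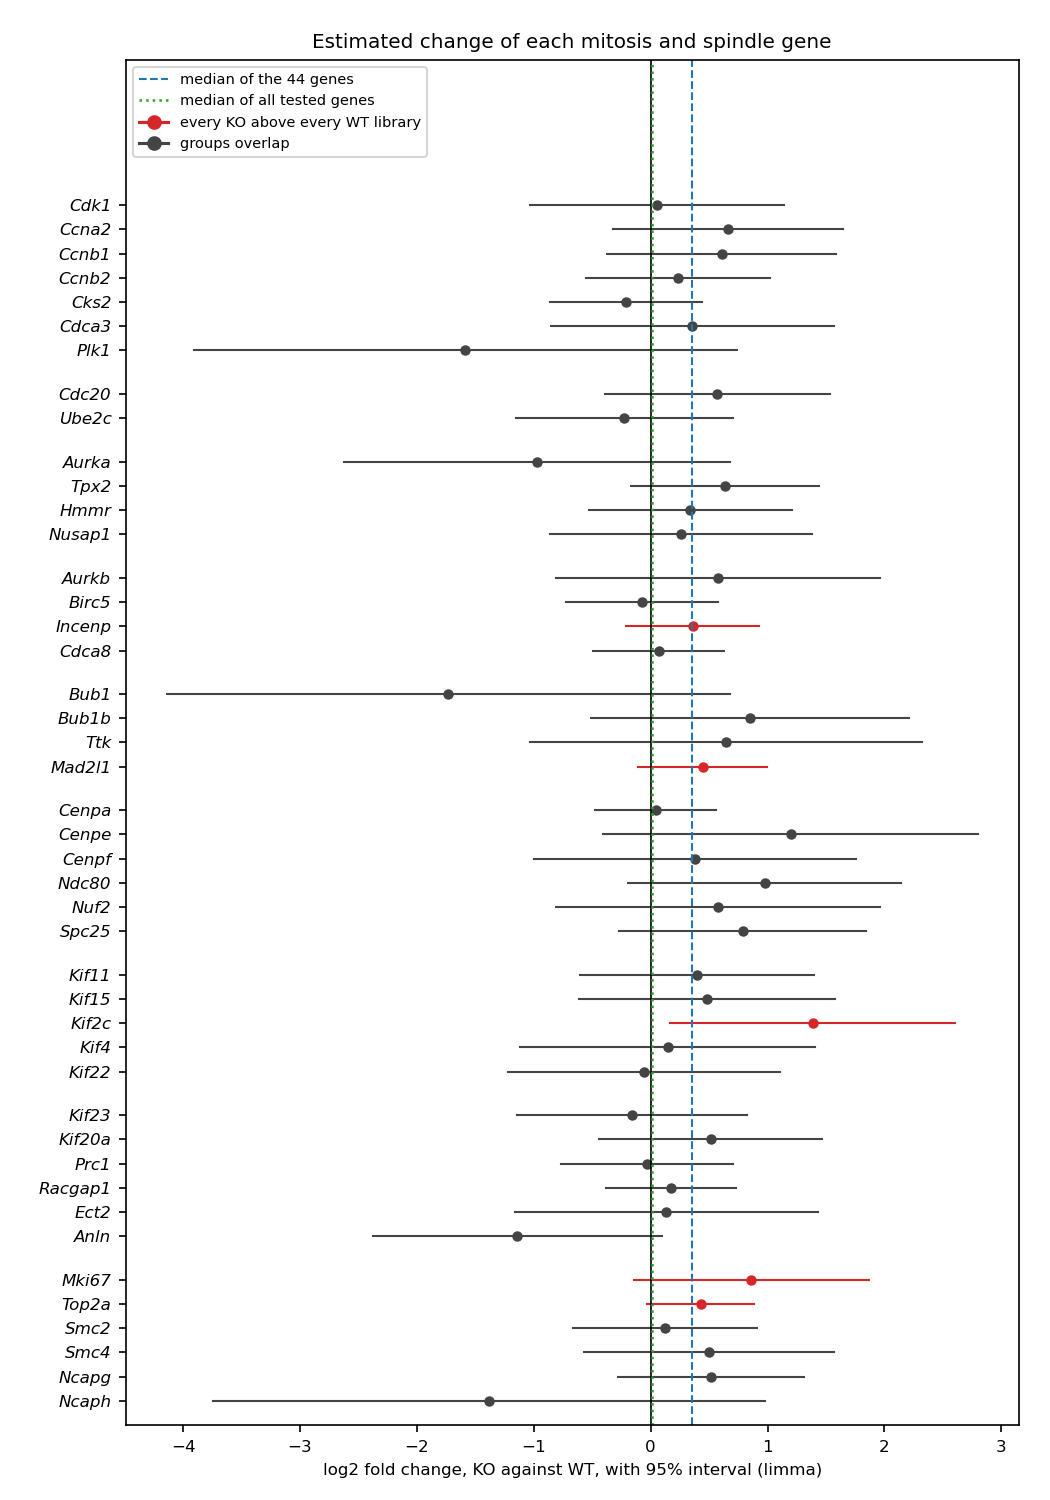
Log2 fold change, KO against WT (horizontal axis), with the 95% limma interval for each of the 44 genes, grouped by role from mitotic entry (top) to chromosome structure (bottom). Red marks the 5 genes whose groups do not overlap, and of the 44 intervals that of Kif2c (0.17 to 2.60) excludes 0.

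The mean of log2(normalized count + 1) over the 44 genes was 6.39, 6.22, 6.13 and 6.45 in WT 1 to WT 4 and 6.52, 6.54 and 6.42 in KO 1 to KO 3. The groups overlapped, since WT 4 lay above KO 3. The mean difference was 0.20, with group values of 6.30 ± 0.15 (SD, n = 4) and 6.49 ± 0.06 (SD, n = 3), and it was 0.17 without WT 2 and 0.14 without WT 3. As a share of all reads, the genes other than Smc4 took 781.5, 663, 663 and 699 RPM in WT 1 to WT 4 and 871, 784.7 and 875 RPM in KO 1 to KO 3. WT 1 and KO 2 nearly touched, and with Smc4 the groups overlapped, at 810 to 1632 RPM and 1506 to 1806 RPM. In bulk RNA, a difference in the share of dividing cells and one in mitotic RNA per dividing cell cannot be told apart.

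Among the genes that start mitosis, Cdk1, the catalytic kinase (chromosome 10, 69335146 to 69352938, minus strand, GRCm38), stood at 33.0, 144.9, 43.0 and 50.6 in the WT libraries and at 54.6, 55.7 and 68.0 in the KO libraries. WT 2 stood far above the rest, and the KO libraries lay within the WT range (log2 fold change 0.06, SE 0.50; 0.50 without WT 2). Ccnb1, which encodes cyclin B1 (chromosome 13, 100778650 to 100786570, minus strand), stood at 123, 96.9, 30.5 and 105 in the WT libraries and at 114, 117 and 132 in the KO libraries. WT 3 was low and the other libraries were close together (0.61, SE 0.45). Cyclin A2 (Ccna2) and cyclin B2 (Ccnb2) had log2 fold changes of 0.66 and 0.23, the kinase partner Cks2 -0.21 and the entry factor Cdca3 0.36. Plk1, the polo-like kinase (chromosome 7, 122159439 to 122169873, plus strand), stood at 20.9, 43.5, 18.1 and 30.9 in the WT libraries and at 41.0, 17.8 and 0 in the KO libraries. KO 3, the library with the fewest reads, held no Plk1 read, which allows up to 5.52 normalized counts (3 reads; counting error only). The log2 fold change of -1.59 (SE 1.07) rested on that library, as it was 0.02 without KO 3.

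Cdc20, which activates the anaphase-promoting complex (chromosome 4, 118432901 to 118437352, minus strand), stood at 66.0, 129, 39.6 and 94.9 in the WT libraries and at 98.7, 81.6 and 177 in the KO libraries. The groups overlapped, with WT 3 lowest and KO 3 highest (0.57, SE 0.44; 0.25 without KO 3). Its enzyme partner Ube2c, a ubiquitin-conjugating enzyme, had a log2 fold change of -0.22.

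The Aurora kinases of the spindle and of the chromosomes had estimates of opposite sign, and both 95% intervals included 0. Aurka, which acts at the spindle poles (chromosome 2, 172356190 to 172370535, minus strand), stood at 8.80, 23.5, 26.0 and 62.6 in the WT libraries and at 17.5, 16.97 and 5.52 in the KO libraries. WT 4 was the highest, and the 3 reads of KO 3 the fewest (-0.97, SE 0.76). Its activator Tpx2 averaged 81.0 ± 26.8 (SD, n = 4) in WT against 123 ± 25.3 (SD, n = 3) in KO, and the spindle proteins Hmmr and Nusap1 had log2 fold changes of 0.34 and 0.26. Aurkb, the kinase of the chromosomal passenger complex (chromosome 11, 69045647 to 69051664, plus strand), stood at 59.4, 63.4, 9.05 and 43.6 in the WT libraries and at 55.4, 73.5 and 36.8 in the KO libraries. WT 3 stood low, and the log2 fold change of 0.58 (SE 0.64) was -0.042 without it. Incenp, the scaffold of that complex (chromosome 19, 9872296 to 9899551, minus strand), stood at 168, 144, 169 and 122 in the WT libraries and at 191, 180 and 204 in the KO libraries, with no overlap (0.36, SE 0.26). Birc5, its survivin subunit (chromosome 11, 117849251 to 117855743, plus strand), stood at 196, 345, 191 and 205 in the WT libraries and at 184, 179 and 303 in the KO libraries. WT 2 and KO 3 were the high libraries, and the log2 fold change was -0.07 (SE 0.30). Cdca8, which encodes borealin, varied least of the 4 subunits and averaged 156 ± 11.6 (SD, n = 4) in WT against 163 ± 7.87 (SD, n = 3) in KO.

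In the spindle checkpoint, Mad2l1, whose product inhibits Cdc20 until attachment is complete (chromosome 6, 66535390 to 66547220, plus strand), stood at 187, 207, 202 and 169 in the WT libraries and at 209, 256 and 331 in the KO libraries. The groups did not overlap, though KO 1 lay just above WT 2 (0.45, SE 0.25). Bub1, a checkpoint kinase (chromosome 2, 127801122 to 127831865, minus strand), stood at 42.9, 8.15, 30.5 and 26.0 in the WT libraries and at 8.35, 40.4 and 0 in the KO libraries. WT 2 and KO 1 were both low, and KO 3 held no read (-1.73, SE 1.11; -0.30 without KO 3). The pseudokinase gene Bub1b and the kinase gene Ttk had higher estimates, 0.85 (SE 0.63) and 0.64 (SE 0.78).

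Each of the 6 kinetochore and centromere genes had a higher estimate in KO (median log2 fold change 0.68), and 0 of the 6 passed limma or separated the groups. Cenpe, a kinetochore motor (chromosome 3, 135212537 to 135273611, plus strand), stood at 124, 8.15, 63.3 and 126 in the WT libraries and at 157, 115 and 110 in the KO libraries. WT 2 alone was near the floor, and the log2 fold change of 1.197 (SE 0.74) became 0.33 without it. Cenpa, the histone of the centromere (chromosome 5, 30666777 to 30674830, plus strand), stood at 543, 641, 558 and 435 in the WT libraries and at 615, 398 and 697 in the KO libraries, with full overlap (0.04, SE 0.24). The NDC80 complex holds microtubules, and its genes Ndc80, Nuf2 and Spc25 had log2 fold changes of 0.97 (SE 0.54), 0.57 (SE 0.64) and 0.79 (SE 0.49). Cenpf was at 0.38 (SE 0.64), and at -0.22 without WT 2.

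Kif2c, which encodes the microtubule-depolymerising kinesin MCAK (chromosome 4, 117159639 to 117182639, minus strand), had the largest positive estimate. It stood at 33.0, 11.8, 26.0 and 17.6 in the WT libraries and at 44.02, 38.8 and 99.3 in the KO libraries. Every KO library lay above every WT library, and KO 3 was far above the other two. The mean was 22.1 ± 9.33 (SD, n = 4) in WT against 60.7 ± 33.5 (SD, n = 3) in KO, from 251 reads in all. The log2 fold change was 1.39 (SE 0.56; limma adjusted p = 0.9996), and 0.97 without KO 3. The other spindle kinesins, Kif11, Kif15, Kif4 and Kif22, had log2 fold changes from -0.06 (Kif22) to 0.48 (Kif15). That of Kif22 was 0.68 without KO 3 and 0.10 without WT 2.

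Of 6 genes for the spindle midzone and cytokinesis, 3 had higher and 3 lower estimates. Anln, which encodes the actin-binding protein anillin of the cleavage furrow, averaged 47.8 ± 21.9 (SD, n = 4) in WT against 19.1 ± 3.56 (SD, n = 3) in KO. Its groups overlapped because WT 3, at 18.1, lay below KO 2 and KO 3 (-1.14, SE 0.57). Racgap1, part of the centralspindlin complex with Kif23, was at 396 ± 128 and 431 ± 27.6 (0.17, SE 0.26), and Kif23 at -0.16 (SE 0.45). The midzone bundler Prc1 (-0.03, SE 0.34), the midzone kinesin Kif20a (0.51, SE 0.44) and the cytokinesis factor Ect2 (0.14, SE 0.60) made up the rest.

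Among genes of chromosome structure, Top2a, the topoisomerase that untangles sister chromatids (chromosome 11, 98992943 to 99024189, minus strand), stood at 570, 464, 383 and 491 in the WT libraries and at 725, 615 and 577 in the KO libraries. The groups did not overlap, with KO 3 just above WT 1, and the log2 fold change of 0.43 (SE 0.21) ranged from 0.33 to 0.52 when single libraries were left out. Mki67, the proliferation marker Ki-67 that coats mitotic chromosomes (chromosome 7, 135689784 to 135716361, minus strand), stood at 601, 124, 581 and 656 in the WT libraries and at 833, 687 and 725 in the KO libraries. The groups did not overlap, but WT 2 stood far below the rest, and the log2 fold change of 0.86 (SE 0.46) was 0.29 without it. The condensin subunit genes were Smc4 (0.50, SE 0.49), Smc2 (0.12, SE 0.36), Ncapg (0.51, SE 0.37) and Ncaph (-1.38, SE 1.09; 0.33 without KO 3, which held no Ncaph read).

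**Figure D3:**
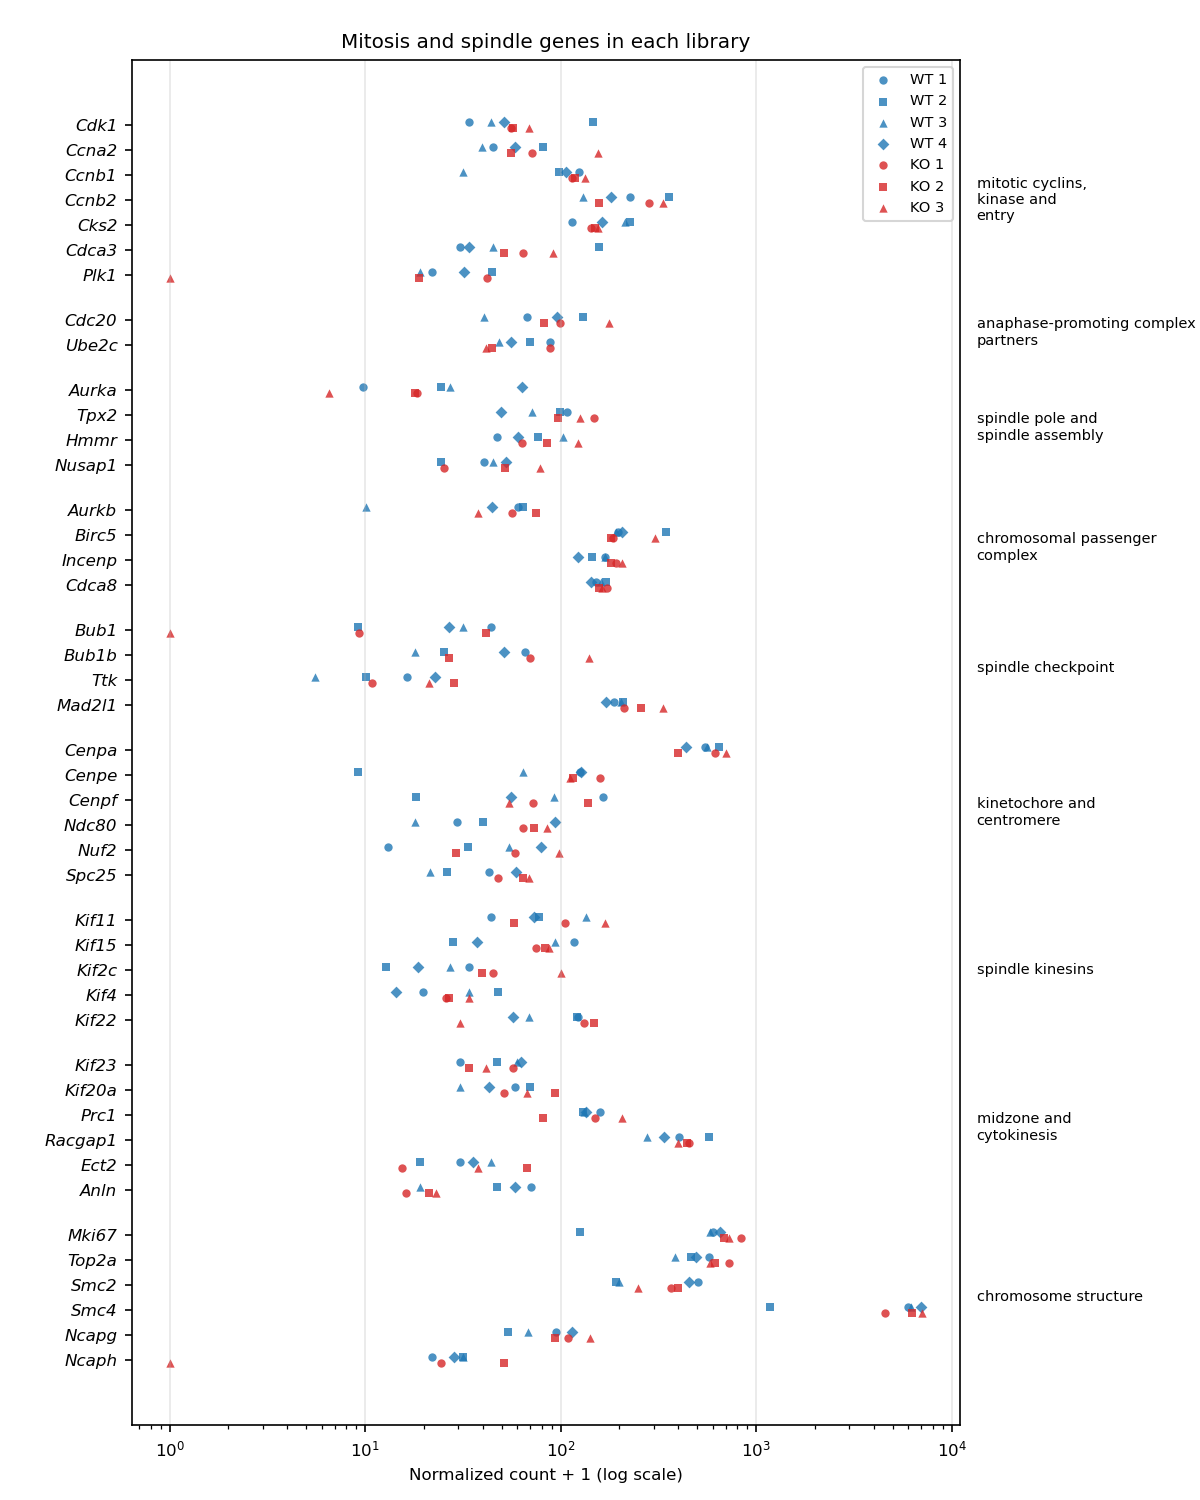
Normalized count + 1 (horizontal, log scale) of the 44 genes in each library, WT in blue and KO in red, with 1 symbol per replicate. Smc4 stands apart at 1172 to 7081 normalized counts, and the 3 points at the left edge are the genes without a read in KO 3.

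Levels spanned a wide range, with 29 of the 44 genes below a mean of 100 normalized counts and a median of 76.1, against 228 for all tested genes. Per kilobase of the principal transcript in GENCODE M21, Smc4 was the highest at 1266 normalized counts per kb over all libraries, followed by Cenpa at 379 and Birc5 at 242. The lowest were Ttk (5.39 per kb) and Kif4 (5.62 per kb). Smc4 encodes the ATPase core subunit shared by condensin I and II (chromosome 3, 69004738 to 69034623, plus strand). It stood at 5993, 1172, 6172 and 6965 in the WT libraries and at 4575, 6291 and 7081 in the KO libraries, and it took between 18.2% (WT 2) and 57.3% (WT 3) of all reads of the 44 genes. WT 2 was by far the lowest, and the log2 fold change of 0.50 was -0.11 without it. The median SD of log2 values within a group was 0.62 in WT and 0.42 in KO, against 0.42 and 0.32 over all tested genes. This comparison was not matched for level, and the median level of the 44 genes was lower.

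The deviation of WT 2 from the other WT libraries went with transcript length. Its log2 level minus the mean of the other 3 WT libraries was -2.29 for Mki67, -2.38 for Cenpf, -3.46 for Cenpe and -2.44 for Smc4, and 1.78 for Cdk1 and 2.13 for Cdca3. Length did not order every gene, since Cdk1 (4375 bases) and Smc4 (4316 bases) are alike in length and deviated in opposite directions, and Mad2l1 (7557 bases) deviated by 0.16. Over the 44 genes the deviation of WT 2 and transcript length had a Spearman correlation of -0.44, and over 11054 protein-coding tested genes of -0.37. Both are descriptions across genes of 1 library, which are not independent replicates. In WT 1, WT 3 and WT 4 the correlation was 0.32, 0.37 and 0.02 over the 44 genes. Over all coding genes it was 0.09, 0.33 and 0.13. The reference means of these libraries contain WT 2, so their correlations are not independent of that of WT 2. In KO 1 to KO 3 the correlation lay between -0.13 and 0.08 over the 44. Among the 22 genes with transcripts longer than 3039 bases, 19 had higher estimates in KO, and 15 without WT 2. Among the 22 with transcripts up to that length, 14 had higher estimates, and 16 without WT 2. Leaving out WT 2 left 31 of the 44 with higher estimates (50.7% of all tested genes) and a median of 0.34, and the 5 separated genes became 7, against 4.07% of all tested genes.

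**Figure D4:**
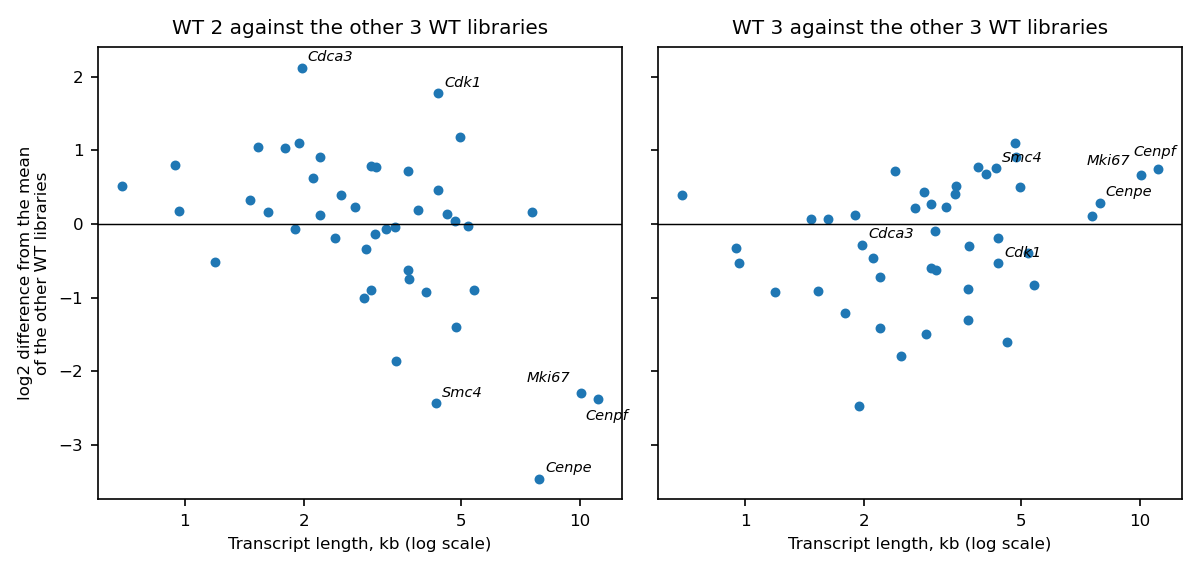
Log2 difference of WT 2 (left) and WT 3 (right) from the mean of the other 3 WT libraries (vertical axis) against transcript length in kb (horizontal, log scale), 1 point per gene. Long transcripts such as Cenpe and Mki67 lie low in WT 2, with a Spearman correlation of -0.44. The slope runs the other way in WT 3 (0.37), whose reference mean contains WT 2.

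KO 3 held the highest value of the 7 libraries for 16 of the 44 genes, and the lowest for 6. WT 3 held the highest for 0 and the lowest for 12, and WT 2 the highest for 8 and the lowest for 9. Without KO 3, 33 of the 44 estimates were positive (54.2% of all tested genes), the median was 0.24, 38 genes had the same sign as in all 7 libraries (Cdk1, Nusap1 and Cenpa turned negative and Plk1, Kif22 and Ncaph positive), and 6 were separated upward and 1 downward, against 3.57% and 4.43% of all. Without both WT 2 and KO 3, 33 estimates were higher (51.9% of all), and 9 genes were separated upward and 1 downward, against 9.27% and 9.58% of all. In each of the 7 fits that left out 1 library, 24 genes had a higher and 5 a lower estimate in KO throughout.

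In the fit of all 7 libraries, the other cell cycle lists had medians closer to that of all tested genes. Of 89 other mitotic genes named (Ccnf, Bub3, Aspm, Knl1, Tacc3 and the like), 88 were listed and 82 tested, with 44 higher and 38 lower estimates, a median log2 fold change of 0.04 and 0 passing. The 3 with the smallest unadjusted p were all lower in KO: the kinetochore gene Dsn1 averaged 54.5 ± 7.90 (SD, n = 4) in WT against 19.5 ± 14.2 (SD, n = 3) in KO with no overlap, Cenpt at 96.6 ± 33.8 and 52.2 ± 14.6, and Pimreg at 24.2 ± 4.76 and 10.5 ± 10.5. Without KO 3, the library with the fewest reads, the log2 fold change moved from -1.73 to -1.06 for Dsn1 and from -1.97 to -0.64 for Pimreg. The difference between the 2 lists was not tested. Of 57 tested S phase genes 35 had higher and 22 lower estimates (median 0.12), 0 passing, and the 3 with the smallest p went both ways. The polymerase delta subunit gene Pold3 averaged 244 ± 53.9 in WT against 402 ± 86.0 in KO with no overlap. Also without overlap, the primase gene Prim1 averaged 101 ± 11.8 and 41.8 ± 29.0. The groups of the helicase factor gene Gins2, at 294 ± 108 and 199 ± 79.0, overlapped. Without KO 3 the log2 fold change moved from -1.63 to -0.78 for Prim1 and from -0.56 to -0.33 for Gins2. Without both WT 2 and KO 3, estimates were higher for 77.2% of tested S phase genes, against 75% of the 44. The remaining lists then stood at 50% to 57.3%, and all tested genes at 51.9%. Genes separated upward in that fit made up 20.45% of the 44, 12.5% to 19.05% of the other lists and 9.27% of all.

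Regulators of mitotic transcription were near balance, with 13 of 24 tested genes higher and 11 lower (median 0.02), 0 passing. Foxm1 was low, at 6.6001, 9.96, 44.1 and 11.9 in the WT libraries and at 28.1, 9.69 and 3.68 in the KO libraries, and Mybl2, which encodes B-MYB, averaged 33.3 ± 16.99 (SD, n = 4) in WT against 38.7 ± 3.46 (SD, n = 3) in KO; both were named outside the rule. The smallest p belonged to E2f8, an atypical repressor of E2F targets, at 3.08 ± 2.11 and 21.8 ± 22.9 with 60 reads in all. Its groups did not overlap, but KO 1, at 4.55, lay just above WT 2, at 4.53. Rb1 followed, and then the p130 gene Rbl2, at 2148 ± 17.3 and 2513 ± 184 with no overlap. KO 3, at 47.8, set the KO mean of E2f8, whose log2 fold change was 2.202 with it and 1.38 without it, and that of Rb1 moved from 0.48 to 0.25 without KO 3 and 0.19 without WT 2. G1 and quiescence genes had 12 of 21 estimates higher and 9 lower (median 0.02), 0 passing. The 3 with the smallest p were Klf4, Cdk2 and Tob1. Klf4 stood at 6.602 ± 2.48 and 26.4 ± 11.9 with no overlap, and Cdk2 at 251 ± 65.7 and 305 ± 22.9. Tob1 stood at 146 ± 53.8 and 188 ± 86.2, and its log2 fold change of 0.36 was 0.01 without KO 3. Of the 44 genes those with a CHR match had 22 of 30 estimates higher (median 0.20) and those with a window and no match 5 of 8 (median 0.35). Over all tested genes with a window, 56.1% with a match and 50.6% without had higher estimates. These shares were 55.6% and 58.6% for other mitotic genes, and 42.9% and 64.1% for S phase genes. Genes without a window are not in this split.

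**Figure D5:**
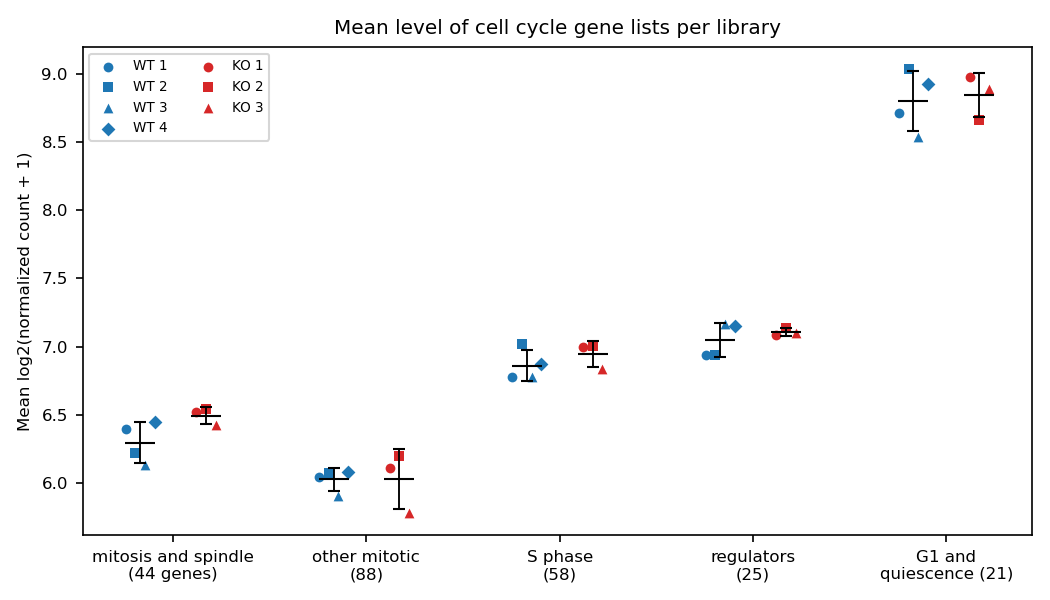
Mean of log2(normalized count + 1) per library (points) for the 44 genes and 4 other lists, with group mean and SD (bars), WT in blue and KO in red. The 44 genes stand at 6.13 to 6.45 in WT and 6.42 to 6.54 in KO, and in each list the 2 groups overlap.

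SmartSeq2 libraries keep no strand, so reads of some of these genes cannot be told apart from those of a neighbour. In GENCODE M21, exons of 12 of the 44 share bases with another gene, and for 7 that gene is in the table (Ccna2, Cdc20, Nusap1, Kif4, Kif20a, Prc1 and Ncapg). Pseudogenes are named after 4 (Ccnb1, Ccnb2, Kif4 and Kif22).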

How the data were processed

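Per the labels' protocols, SmartSeq2 libraries were prepared from 10 ng total RNA of sorted YFP+ cells and read on a NextSeq 500, with bcl2fastq2 2.20 for demultiplexing. Tools and build named without a role, per the submitters' processing notes, are mm10, DESeq2, R 3.3.1, Partek 6.6, kallisto 0.44 and CASAVA 1.8. What the authors deposited is a normalized signal per gene to which 1 was added. After subtracting it, 100% of values in each library were whole multiples of a fixed step (within 0.01 of a read), which gave the normalized counts and the reads used here. Intervals and floors from reads cover counting error only, since SmartSeq2 reads carry no molecular identifiers.

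Levels on the log2(normalized count + 1) scale entered limma 3.58.1 (R 4.3.3) with a trended prior, no covariate, and Benjamini-Hochberg adjustment over the 11787 genes with a mean of at least 10. The fit was tried on simulated counts with the same spread setting for every gene and no outlying library. That trial does not show how the fit performs on these libraries. SE is limma's moderated standard error. Hpgd (mean 8.70) lay below the filter. Voom was run on recovered reads, while the count models edgeR and DESeq2 were not. The members and lists were chosen with earlier results of these data known. Values in each library are given for genes that separate the groups, the 2 largest estimates in each direction, the 3 highest per kb and 10 fixed genes; other lists are represented by their 3 smallest p. Transcript lengths and gene coordinates come from GENCODE M21 on GRCm38, in which 15053 symbols of the table were found.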

Additional observations from a re-analysis of the deposited data

Results flagged for a closer look

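In 6 of 52 comparisons among the 4 WT libraries (44 genes and 8 summary levels), WT 2 lay farther from the rest than Dixon's 95% limit allows. Chance flags about 1 in 20 groups of normally distributed values. The 52 groups share the same 4 libraries, so their flags are not independent. For single genes the limit was applied to normalized counts, and flags can differ on the log2 scale. WT 2 was highest for Cdk1 (144.9 against 33.0 to 50.6 normalized counts in the other WT libraries), Cdca3 (156.6 against 29.7 to 44.1) and Birc5 (344.9 against 191 to 205). It was lowest for Mki67 (124 against 581 to 656) and Smc4 (1172 against 5993 to 6965). The 44 genes together took 810 RPM in WT 2 and 1554 to 1632 in the other WT libraries. Without Smc4 they took 662.9 RPM in WT 2 and 663.4 to 781.5 in the other WT libraries, which was not flagged. The flag of the sum and that of Smc4 are therefore not separate.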

How the results depend on the processing

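Under every alternative run, 0 of the 44 genes passed. Over all genes 0 passed, except 4 with array weights, 3 with the replicate block and 4 without both WT 2 and KO 3. Same-numbered WT and KO libraries had deviations correlated at 0.01, -0.04 and 0.09, so the numbers were not treated as pairing the samples. The block left 30 of the 44 genes with higher estimates, and over the alternatives with all 44 tested this count lay between 30 and 34; with the filter at a mean of 50 it was 26 of 31. The median log2 fold change of the 44 ranged from 0.24 to 0.43 when single libraries were left out, and the mean level difference from 0.14 to 0.25. The 5 separated higher genes (1.71% of all tested genes) became 9 without both WT 2 and KO 3 (9.27% of all). They were 5 to 7 without single libraries, with 7 without WT 2 (4.07% of all) and 6 without KO 3 (3.57%). Total-count scaling left 3. Separated lower genes went from 0 (1.93% of all) to 1 without both (9.58%). They lay between 0 and 2 without single libraries, with 1 without KO 3 (4.43%). The share of all genes is not given here for total-count scaling and the other single-library fits, so their counts cannot be read alone. Fewer libraries make separation easier by construction. Split at the median transcript length, a choice made after seeing the data, the medians were 0.24 for short and 0.39 for long transcripts.

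Medians near 0 turned sign, while that of S phase genes stayed positive under every alternative (0.056 to 0.16 without single libraries). That of other mitotic genes lay between -0.056 and 0.079 without single libraries, that of regulators between -0.033 and 0.078, and that of G1 and quiescence genes between -0.067 and 0.065, with -0.13 under array weights. Estimates of single genes, not only those near 0, also turned when libraries were left out: Smc4 (-0.11 to 0.74), Cenpa (-0.12 to 0.28), Birc5 (-0.32 to 0.13), Plk1 (-2.68 to 0.016), Cdk1 (-0.20 to 0.50) and Aurkb (-0.042 to 0.85). Smc4 was at -0.0018 with array weights and -0.25 without both WT 2 and KO 3. Cenpa was at -0.058 with array weights, -0.061 with the replicate block and -0.040 without both, and Plk1 at 0.24 without both. Cdk1 was at -0.00027 with the block and -0.020 with voom. The cause of these turns was not tested. Counts of the lowest genes rest on few reads, such as 117 for Ttk over 7 libraries. Tests with edgeR and DESeq2 on the recovered reads were not run.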
